A study of Caenorhabditis elegans with 8 samples.

Results

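The hedgehog-related and patched-related genes of Caenorhabditis elegans were examined on arrays of aptf-1(gk794) mutants and of the wild type N2. Members were taken by symbol: the warthog (wrt), groundhog (grd), ground-like (grl), hog and quahog (qua) genes, and the patched (ptc) and patched-related (ptr) genes. A member had to have a probe well above background, by the scanner's own spot flag, on all 4 arrays of at least 1 genotype. This gave 66 of 18313 genes and unnamed targets tested, of 88 genes with such a symbol in the reference table. There were 9 wrt, 13 grd, 22 grl, 18 ptr and 3 ptc genes and qua-1, so 45 hedgehog-related and 21 patched-related genes. They were read by 90 of 32007 tested probes. Only 1 probe was tested for 56 of the members, among them ptr-2, wrt-4, grl-8, grl-5 and qua-1. Of the remaining genes, 19 had a probe that did not pass and 3 (hog-1, ptr-10 and ptr-16) had no matched probe. 59 members were well above background on all 8 arrays. The other 7 passed through 1 genotype only and are read near background in the other: grd-2, grd-11, grd-16, ptr-17, ptr-25 and wrt-2 through the mutant and grl-20 through N2. 2 members, ptc-2 and grl-32, are listed as pseudogenes.

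Total RNA came from whole hermaphrodite larvae, labelled as sleeping animals of the fourth larval stage (L4). The mutant strain carries gk794, a deletion allele of aptf-1, which encodes an AP2 transcription factor that the study examined in the sleep-active neuron RIS, and N2 carries no such allele. Per the labels all worms were kept at 21.5 °C, each sample held 200 picked animals, and labelling started from 200 ng of RNA. The study's general methods name a higher growth temperature, and the study gives the number of animals as approximate. There were 4 samples per genotype, each on 1 single-color Agilent array, and the study describes them as biological samples. Mutants of aptf-1 lack sleep immobility according to the study, and how far a mutant picked as sleeping matches a sleeping N2 larva in developmental time was not tested. In whole animals, fewer cells of a type and less RNA per cell cannot be told apart.

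Hedgehog-related proteins of nematodes are secreted proteins. Some of them carry the Hog domain, the self-cleaving part of a hedgehog protein, joined to a nematode-specific domain in place of the signaling domain. Patched-related proteins are membrane proteins with a sterol-sensing domain, and the worm has no clear counterpart of Smoothened, which carries the hedgehog signal in flies and mammals. Many genes of both groups are expressed in the epidermis and other cuticle-forming epithelia, and loss of several of them gives defects in molting.

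Between 72.2% and 79.7% of the spots of an array were well above background and 0 were saturated. Levels below are log2 processed signal minus the 75th percentile of the array, so that 0 is the level of a spot at that percentile. Differences are aptf-1(gk794) minus N2 on that log2 scale, with their SE and n = 4 arrays per genotype. Each slide held 4 arrays, 2 of each genotype: mutant replicates 1 and 2 with N2 replicates 1 and 3 on slide 1, and mutant replicates 3 and 4 with N2 replicates 2 and 4 on slide 2. N2 lay on positions 1 and 2 of each slide and the mutant on positions 3 and 4, so genotype and position cannot be told apart. The aptf-1 probe read -5.34, -5.24, -5.18 and -5.58 on N2 replicates 1 to 4 and -5.96, -7.22, -4.29 and -7.13 on mutant replicates 1 to 4. The array labelled aptf-1(gk794) replicate 3 thus had the highest signal of this probe, which goes against its label if the probe lies in the deleted part. That was not tested. The probe also read near background. On mutant replicates 2 and 4 it lay below the lowest value well above background of those arrays (-6.43 and -6.38). On flp-11, a neuropeptide gene called lower in the mutant (-1.18, SE 0.07, adjusted p = 0.00275 by limma), the same array read -0.69, among the other mutant arrays at -0.71 to -0.64 and apart from N2 at 0.45 to 0.60. Many members were highest on the array labelled mutant replicate 3. Values without it are therefore given below for the counts past 1.5-fold and for some genes. They are not given for every gene that peaked there, such as grl-5, grl-15 and wrt-6. A replicate named below is always the array so labelled.

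No member passed the threshold of an adjusted p under 0.05 with at least a 1.5-fold difference, which 17 genes of all tested passed (0.0928%). The smallest adjusted p of a member was 0.145, for ptr-2. At an unadjusted p under 0.05, 3 members were higher in the mutant (ptr-2, wrt-4 and grl-7) and 4 were lower (grl-8, grl-31, grl-27 and grl-4), where the background over all genes was 4.48% higher and 7.76% lower. In 2 members, ptr-2 and grl-7, all 4 mutant arrays lay above all 4 N2 arrays (background 3.1%), and in 0 members all lay below (background 5.01%). In this fit the counts of members by p and by separation of the groups were thus close to what all genes gave. With the slide as a block, 15 of the 66 members had an unadjusted p under 0.05 by limma, where 12.2% of all genes did. The median difference of the 66 members was 0.02, against -0.03 for all genes, with 35 positive and 31 negative.

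What set the members apart from the bulk of genes was the size of their differences together with the spread within a genotype. Some molting genes, read below, shared this. 17 members (25.8%) were at least 1.5-fold higher in the mutant, where 4.72% of all genes were, and 7 (10.6%) were at least 1.5-fold lower, where 3.7% of all genes were. These counts include genes that passed only through the genotype in which they were high. Among the 59 members well above background on all 8 arrays, 13 were at least 1.5-fold higher (3.87% of all genes under that filter) and 6 lower (2.60%). The pooled SD within genotypes had a median of 0.57 over the members and 0.20 over all genes, and it was above 0.5 in 37 members (56.1%) and in 13.9% of all genes. It was above 1 in 14 members (21.2%) and in 2.09% of all genes. Without mutant replicate 3, 11 members were at least 1.5-fold higher (5.47% of all genes) and 7 lower (4.18%). The counts also depend on how background is handled at low signal. With normexp, an alternative background correction, 11 members were at least 1.5-fold higher (1.71% of all genes) and 4 lower (0.677%). Members were not compared with genes of like signal level.

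**Figure D1:**
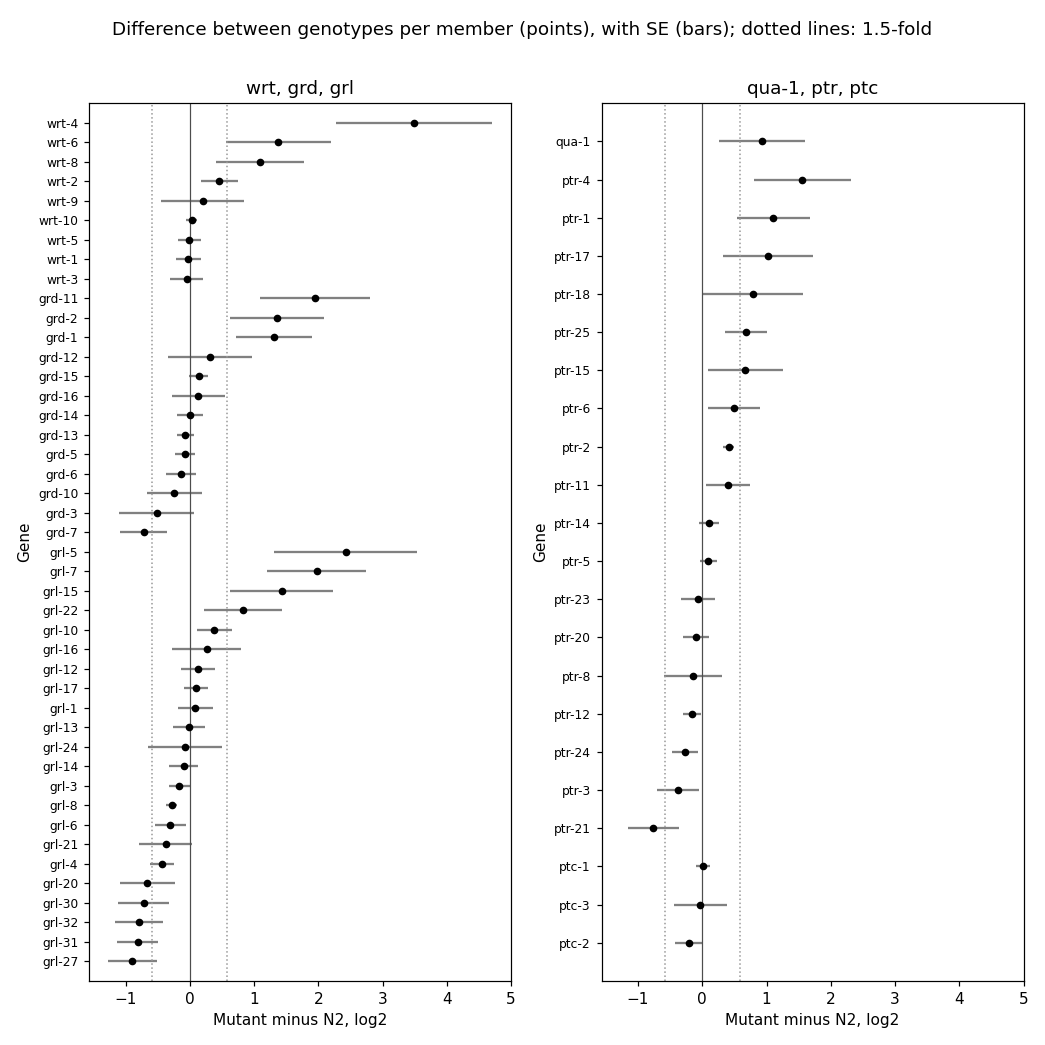
Difference between the genotypes for each member (points, mutant minus N2, log2), with the SE of the limma fit (bars, 4 arrays per genotype) and dotted lines at 1.5-fold. wrt-4 has the difference farthest from 0, at 3.49, and most bars of the members with large differences are wide.

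The array on which a member was highest was far from evenly spread. The array labelled mutant replicate 3 gave the highest value for 28 members (42.4%, against 10.8% of all genes), N2 replicate 4 for 19 (28.8%, against 18.0%) and mutant replicate 4 for 0 (0%, against 5.78%). Mutant replicates 3 and 4 were together the highest pair of arrays for 18 members (27.3%, against 4.2% of all genes). 21 members lay at least 1 above their own mean of 8 arrays on mutant replicate 3 and 11 on mutant replicate 4, where 2.35% and 2.20% of all genes did. On N2 replicate 1, 15 members lay at least 1 below their mean, against 1.54% of all genes. That array was the weakest, with a 75th percentile signal of 315, against 431 to 837 on the others. Its share of spots well above background was also the lowest (72.2%). Some of these members, such as grd-11 (-7.65) and ptr-17 (-7.31), lay below its lowest value well above background (-5.95), while wrt-4 (-3.74) did not. All 17 members that were at least 1.5-fold higher in the mutant were highest on mutant replicate 3, and 0 of the 7 that were lower. Both groups were chosen by these same values. The choice itself favored a peak on a mutant array in the 17 and worked against it in the 7.

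**Figure D2:**
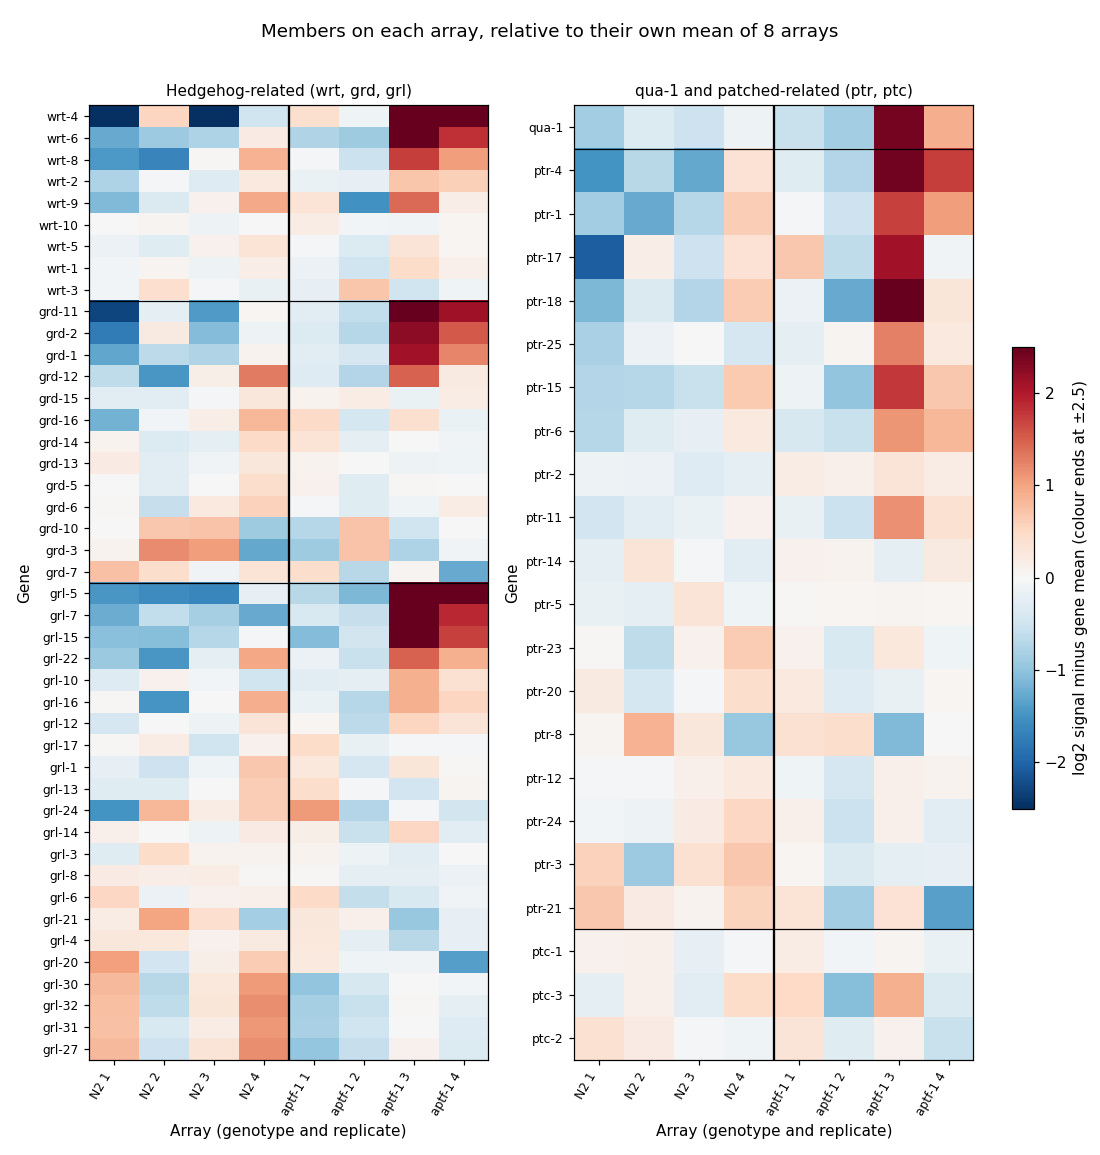
Level of each of the 66 members on each array (columns, 4 N2 and 4 mutant arrays) minus the mean of the gene over the 8 arrays, in log2, with families divided by lines and genes sorted by their difference. The red blocks on mutant replicates 3 and 4 hold 18 members whose highest pair of arrays these are, and the lower grl rows are highest on N2 replicates 4 and 1.

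Among the warthog genes, wrt-4 differed most. It read -3.74, 0.23, -3.91 and -0.81 on N2 replicates 1 to 4 and 0.09, -0.42, 3.43 and 2.61 on mutant replicates 1 to 4. N2 replicates 1 and 3 were far below the other N2 arrays, mutant replicates 3 and 4 were far above the other mutant arrays, and the groups overlapped through N2 replicate 2. The difference was 3.49 (SE 1.22, 11.2-fold), and limma gave an unadjusted p of 0.0208 and an adjusted p of 0.342. The N2 arrays on slide 1 were the low ones and the mutant arrays on slide 2 the high ones, so the difference was of like size within each slide, at 3.66 and 3.31. With the slide as a block, wrt-4 was the only member that passed (adjusted p = 0.0252 by limma). Over all alternatives its adjusted p ranged from 0.0252 to 0.60 and its difference from 2.82, without mutant replicate 3, to 4.75, with a slide and position term.

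The other wrt genes varied widely in their spread. wrt-6 read -4.11, -3.78, -3.64 and -2.66 on the N2 arrays and -3.62, -3.75, -0.29 and -1.03 on the mutant arrays. Only mutant replicates 3 and 4 stood above N2, and the difference of 1.38 (SE 0.82) was 0.19 on slide 1 and 2.56 on slide 2. wrt-8 (1.09, SE 0.69) was likewise highest on mutant replicates 3 and 4, with N2 replicates 1 and 2 lowest. wrt-2, near background in N2, differed by 0.46 (SE 0.29). wrt-9 spanned -5.29 to -2.37 within the mutant and -4.88 to -2.83 within N2. In contrast, wrt-10 stayed between -4.67 and -4.36 on all 8 arrays and differed by 0.03 (SE 0.09), and wrt-5, needed for embryonic morphogenesis, stayed between -1.02 and -0.34 and differed by -0.01 (SE 0.18).

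Of the groundhog genes, grd-11, grd-1 and grd-2 had the large positive differences. grd-11 read -7.65, -5.58, -6.76 and -5.30 on the N2 arrays, only 2 of them well above background, and -5.62, -5.97, -2.68 and -3.23 on the mutant arrays. Mutant replicates 3 and 4 stood apart from the other 6 arrays, and the difference of 1.95 (SE 0.86) depends on N2 values near background. grd-1 read -5.49, -4.84, -4.94 and -4.09 on the N2 arrays and -4.46, -4.61, -2.09 and -2.97 on the mutant arrays (difference 1.31, SE 0.58). Here too the groups overlapped and mutant replicates 3 and 4 were the highest pair. grd-2 differed by 1.36 (SE 0.73). Without mutant replicate 3 these differences were 1.38, 0.83 and 0.84. With normexp, the alternative background correction, the differences of grd-11, grd-1 and grd-2 were 0.53, 0.54 and 0.63.

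grd-7 had the most negative difference of the grd genes. It read -1.96, -2.25, -2.78 and -2.36 on the N2 arrays and -2.26, -3.39, -2.62 and -3.96 on the mutant arrays. Mutant replicates 2 and 4 were low and the other 2 mutant arrays lay within the N2 range (difference -0.72, SE 0.37, unadjusted p = 0.0852 by limma). Levels of grd-5, grd-6, grd-13, grd-14 and grd-15 differed by -0.14 to 0.14.

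In the ground-like family, 9 differences were positive and 13 negative. grl-7 read -2.70, -2.06, -2.28 and -2.71 on the N2 arrays and -1.83, -2.04, 1.57 and 0.43 on the mutant arrays. All mutant arrays lay above all N2 arrays, but mutant replicate 2 by only a small step, and mutant replicates 3 and 4 by far more. The difference was 1.97 (SE 0.77, unadjusted p = 0.0344, adjusted p = 0.377 by limma), 0.56 on slide 1, 3.39 on slide 2, and 1.29 without mutant replicate 3. Its 2 probes gave 2.10 and 1.84.

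grl-5 followed the same arrays. It read -3.70, -3.81, -3.88 and -2.44 on the N2 arrays and -2.95, -3.37, 1.40 and 0.79 on the mutant arrays. N2 replicate 4 was above mutant replicates 1 and 2, and the difference of 2.43 (SE 1.11, unadjusted p = 0.0607) was 0.63 on slide 1 and 4.22 on slide 2. grl-15 behaved in this way too, with 1.43 (SE 0.80), 0.11 on slide 1 and 2.75 on slide 2.

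A further 4 grl genes lay close together on chromosome V and had nearly the same pattern across arrays. grl-31 read 1.00, -0.12, 0.43 and 1.34 on the N2 arrays and -0.56, -0.24, 0.27 and -0.07 on the mutant arrays (difference -0.81, SE 0.32, unadjusted p = 0.0354 by limma). N2 replicates 4 and 1 were highest, N2 replicate 2 lay inside the mutant range, and mutant replicate 1 was lowest. grl-27 differed by -0.89 (SE 0.38, 2 probes at -0.89 and -0.90), grl-30 by -0.72 (SE 0.39) and the pseudogene grl-32 by -0.80 (SE 0.37), each highest on N2 replicate 4, then on N2 replicate 1, and lowest on mutant replicate 1. All 4 differed more on slide 1 (-1.34 to -1.11) than on slide 2 (-0.51 to -0.21), the reverse of the genes that peaked on mutant replicates 3 and 4. In the reference table these genes lie with grl-28 and grl-29 in a stretch with 7 other genes between them. They are related in sequence by family, so a shared pattern may include signal that their probes share, which was not tested.

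The 3 adjacent genes grd-13, grd-3 and grd-10 on chromosome IV did not share a pattern. grd-3 read -0.40, 0.70, 0.56 and -1.76 on the N2 arrays and -1.37, 0.23, -1.26 and -0.57 on the mutant arrays, lowest on N2 replicate 4. grd-10 had its lowest values on N2 replicate 4 and mutant replicates 1 and 3, as grd-3 did, while grd-13 varied only from 1.42 to 1.96 and was highest on N2 replicate 4. None of the 3 differed between genotypes beyond its spread (-0.52, SE 0.59, for grd-3).

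**Figure D3:**
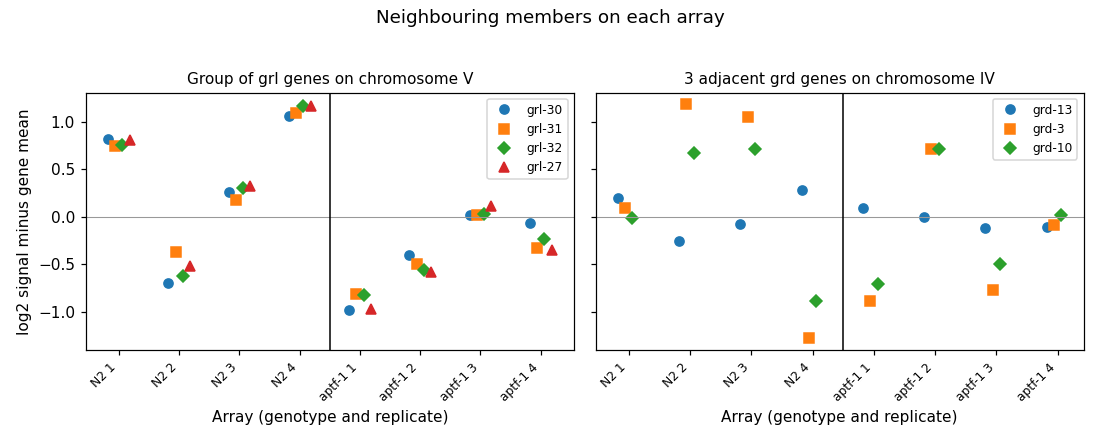
Level of neighboring members on each array minus the gene mean (log2), for 4 grl genes on chromosome V (left) and 3 adjacent grd genes on chromosome IV (right). The 4 grl genes move together and are highest on N2 replicates 4 and 1; grd-3 and grd-10 move together and grd-13 apart from them.

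grl-8 and grl-4 went the other way from grl-7. grl-8 read -2.69, -2.74, -2.71 and -2.87 on the N2 arrays and -2.86, -3.12, -3.12 and -3.04 on the mutant arrays. Its spread was small, N2 replicate 4 and mutant replicate 1 overlapped slightly, and the difference was -0.28 (SE 0.09, unadjusted p = 0.0134, adjusted p = 0.308 by limma). It was -0.29 on slide 1 and -0.28 on slide 2. grl-4 differed by -0.43 (SE 0.18, unadjusted p = 0.0491) and was lowest on mutant replicate 3, at 2.82 against 3.30 to 3.79 on the other mutant arrays and 3.62 to 3.79 in N2. grl-21 read 3.51, 4.31, 3.74 and 2.48 on the N2 arrays and 3.60, 3.46, 2.37 and 3.13 on the mutant arrays, lowest on mutant replicate 3 and N2 replicate 4. Its 5 probes gave -0.40 to -0.33, and its difference of -0.37 (SE 0.41) was smaller than its error.

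qua-1, a gene needed for molting, read -4.39, -3.87, -4.05 and -3.66 on the N2 arrays and -4.08, -4.40, -1.15 and -2.62 on the mutant arrays. Only mutant replicates 3 and 4 lay above N2. The difference was 0.93 (SE 0.66, unadjusted p = 0.199 by limma) over all arrays, -0.02 on slide 1, 1.88 on slide 2 and 0.29 without mutant replicate 3.

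The genes whose proteins carry the Hog domain (wrt-1, wrt-4, wrt-6, wrt-7, wrt-8, grd-1, grd-2, grd-11, qua-1 and hog-1) were grouped after their values had been seen, so no test was made. 8 of these 10 were measured. All 8 were highest on mutant replicate 3, against 20 of the other 58 members, and in 7 of the 8 (87.5%) mutant replicates 3 and 4 were the highest pair, against 11 of 58 (19.0%). These 7 were also at least 1.5-fold higher in the mutant, and wrt-1 (-0.02, SE 0.20) was the exception in both counts. Both counts draw on the same high values of mutant replicates 3 and 4, so the second adds little to the first. With normexp, grd-11 (0.53) and grd-1 (0.54) were below 1.5-fold. The median difference was 1.33 for these 8 and -0.01 for the other 58, and the median pooled SD 1.16 and 0.52. grd-2 and grd-11 passed only through the mutant, where they were high, and the 6 that were well above background on all 8 arrays had a median of 1.20, with 5 at least 1.5-fold higher. Without mutant replicate 3 the median of the 8 was 0.79, with 6 at least 1.5-fold higher, and qua-1 no longer was. Of the 8, only wrt-4 had an unadjusted p under 0.05.

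**Figure D4:**
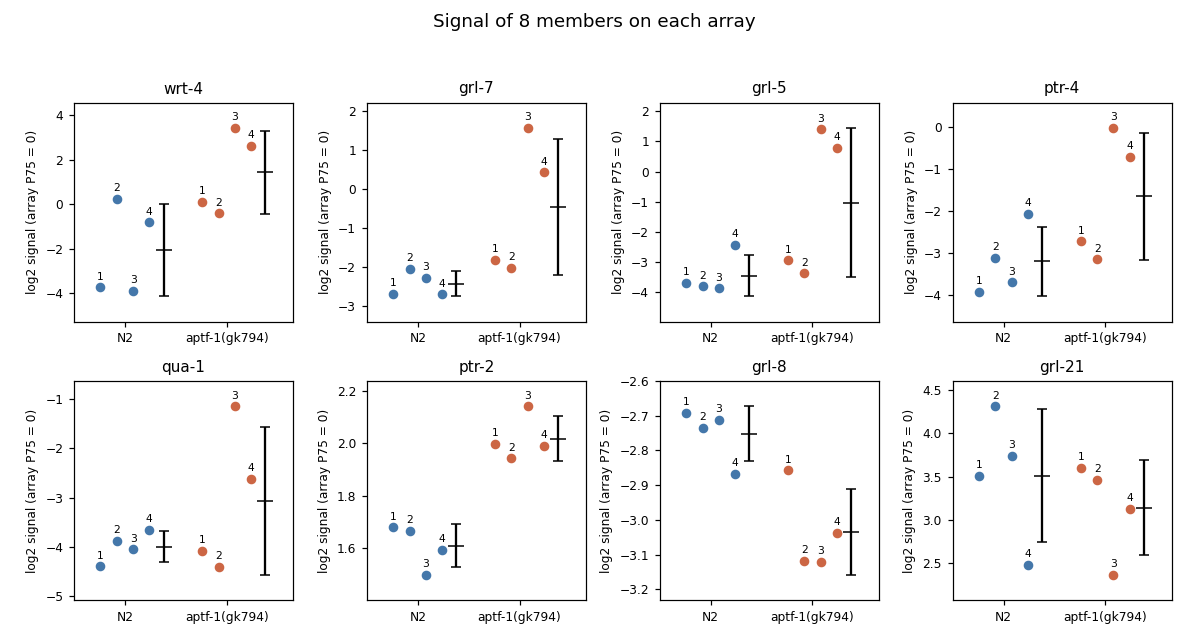
Level of 8 members on each array (points, numbered by replicate; log2 signal with the 75th percentile of the array at 0), with the mean and SD of 4 arrays per genotype (black); the vertical axes differ. wrt-4, grl-7, grl-5, ptr-4 and qua-1 are highest on mutant replicates 3 and 4, and ptr-2 shows 2 tight groups that do not overlap.

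Of the patched-related genes, ptr-2 had the smallest p of all members. It read 1.68, 1.66, 1.5 and 1.59 on N2 replicates 1 to 4 and 2.00, 1.94, 2.14 and 1.99 on mutant replicates 1 to 4. The groups did not overlap, and the spread within each was small (SD 0.08 in N2 and 0.09 in the mutant). The difference was 0.41 (SE 0.08, 1.33-fold, unadjusted p = 0.000981, adjusted p = 0.145 by limma), below 1.5-fold, and was 0.38 on slide 1, 0.44 on slide 2 and 0.37 without mutant replicate 3. Its unadjusted p stayed under 0.05 with each array left out in turn, as did that of grl-8, and no other member's did in all 8 such fits.

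ptr-4, whose protein acts in the apical extracellular matrix of the epidermis, read -3.93, -3.13, -3.71 and -2.07 on the N2 arrays and -2.73, -3.16, -0.01 and -0.71 on the mutant arrays. Mutant replicates 3 and 4 were highest, N2 replicate 4 came next, and mutant replicates 1 and 2 lay within the N2 range. The difference was 1.56 (SE 0.76, unadjusted p = 0.0731 by limma), and its 6 probes gave 1.42 to 1.60, so its probes moved together. On slide 1 it was 0.88, on slide 2 2.24, and without mutant replicate 3 it was 1.01.

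ptr-1 (1.11, SE 0.56), ptr-15 (0.67, SE 0.58) and ptr-6 (0.49, SE 0.41) had the same highest pair of arrays. ptr-25 read -5.97, -5.30, -5.15 and -5.58 on the N2 arrays and -5.39, -5.09, -3.89 and -4.92 on the mutant arrays (0.68, SE 0.33). It was near background in N2, and mutant replicate 1 lay inside the N2 range. ptr-18 was highest on mutant replicate 3 alone, at -0.78 against -4.72 to -2.81 on the other 7 arrays (difference 0.78, SE 0.79). ptr-8 was lowest there, at -0.88, and on N2 replicate 4, at -0.73, against 0.23 to 1.10 on the others. ptr-5 and ptr-12 had pooled SDs of 0.18 and 0.20 and differences of 0.10 and -0.16.

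None of the 3 ptc genes had an unadjusted p under 0.05. ptc-1, which acts in the germ line, read 1.02, 1.05, 0.70 and 0.88 on the N2 arrays and 1.11, 0.85, 0.99 and 0.75 on the mutant arrays (0.01, SE 0.11), and its 6 probes gave -0.07 to 0.07. ptc-3 read -3.91, -3.53, -3.93 and -3.21 on the N2 arrays and -3.17, -4.73, -2.78 and -4.03 on the mutant arrays (-0.03, SE 0.41). The mutant arrays lay on both sides of N2. Its 4 probes gave -0.32 to 0.40. The 0.40 came from the one probe that names the b isoform, and a probe of the a isoform gave 0.05. The b probe is also the one whose flagged spot on mutant replicate 4 was left out. On the other probes that array read lower (-5.19 to -5.03) than mutant replicates 1 and 3. Isoform and missing array can thus not be told apart. The pseudogene ptc-2 read -0.86, -1.03, -1.28 and -1.35 on the N2 arrays and -0.91, -1.54, -1.13 and -1.79 on the mutant arrays (-0.21, SE 0.21), and the groups overlapped. Probes of 1 gene also differed in sign for grl-24.

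Slide 2, which held mutant replicates 3 and 4, carried most of the positive differences. Of the 17 members that were at least 1.5-fold higher, all 17 were so on slide 2 and 7 on slide 1, and in 15 the difference was larger on slide 2. Within slide 2 alone 22 members were at least 1.5-fold higher (5.51% of all genes), and within slide 1 alone 8 were (6.07% of all genes). Of the 24 members past 1.5-fold in either direction, 23 had the same sign on both slides, qua-1 being the exception. The difference over all arrays is the mean of the 2 slide differences. Members chosen by its size are thus largely bound to share a sign, and this count does not measure agreement between slides. Each slide held only 2 arrays per genotype.

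**Figure D5:**
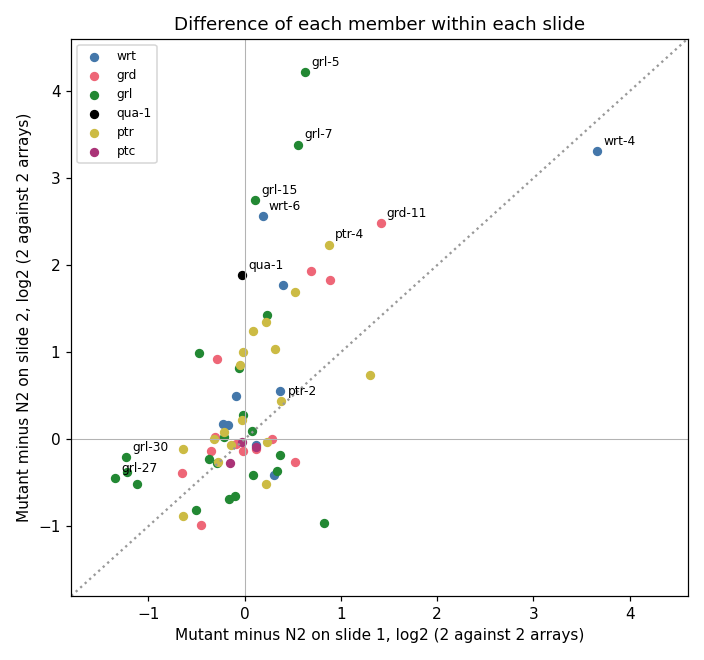
Difference of each member (mutant minus N2, log2) on slide 1 (horizontal) against slide 2 (vertical), 2 arrays per genotype on each, with the dotted line where both are equal. grl-5, grl-7, grl-15, wrt-6 and qua-1 differ mostly on slide 2, wrt-4 about equally on both, and the grl-27 group mostly on slide 1.

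A list of 13 genes with related roles was also read, and all were tested. None was called, 2 were higher at an unadjusted p under 0.05 (ptd-2, a patched-domain gene, 0.27, and hhat-2, which resembles hedgehog acyltransferase, 0.30) and 1 was lower (the glypican gene lon-2, -0.49). che-14, a relative of Dispatched, the hedgehog release protein of flies, read -7.03, -4.34, -5.41 and -5.03 on the N2 arrays and -4.43, -5.36, -2.44 and -3.39 on the mutant arrays (1.55, SE 0.74). Mutant replicates 3 and 4 were highest and N2 replicate 1 lowest. daf-6, a patched-related gene acting in glial lumen formation, differed by 0.57 (SE 0.55), and the megalin gene lrp-1, needed for molting, by 0.47 (SE 0.59). ncr-1, a relative of the sterol transporter NPC1, differed by -0.02 (SE 0.15) and tra-1, the worm's GLI family gene, which acts in sex determination, by -0.21 (SE 0.14).

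Molting genes were read on the same arrays. Of 23 listed, 21 were tested and 0 called, with 3 higher (mlt-9, mlt-11 and bli-2) and 2 lower (noah-2 and lin-42) at an unadjusted p under 0.05. 13 of the 21 (61.9%) were highest on mutant replicate 3. mlt-10 read -3.49, -1.97, -3.79 and -2.77 on the N2 arrays and -2.83, -2.35, 2.19 and 1.54 on the mutant arrays, so that mutant replicates 3 and 4 stood apart from all others. Its difference was 2.65 with a pooled SD of 1.92, and that of bli-2 was 2.20 with 1.19. Others, such as nhr-23 (-0.03 with 0.14), had neither. A large difference with a wide spread was thus not particular to the members. nhr-23, a receptor gene that drives molting, read only -3.01 to -2.60 on all 8 arrays, and nas-37, a molting protease gene, -3.60 to -2.69. The median deviation from the gene mean was 0.55 for the molting list and 0.28 for the members on mutant replicate 3, 0.32 and 0.04 on mutant replicate 4, and -0.39 and -0.42 on mutant replicate 2. The part of molting stage in the members' values was not tested.

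Markers of tissues were read beside these values. Of 7 epidermal and seam markers 3 were tested, with a summed level of 3.41 to 3.89 in the mutant and 4.18 to 4.67 in N2 (the array's 75th percentile being 1), of which elt-3 differed by -0.44 (SE 0.09), elt-1 by -0.14 (SE 0.10) and lin-26, in the other direction, by 0.18 (SE 0.10). Summed levels of 4 intestinal markers were 8.82 to 9.83 in the mutant and 9.93 to 14.2 in N2. Those of 2 glial markers were 1.13 to 1.30 and 1.28 to 2.20, which overlapped slightly. Muscle (40.8 to 51.5 and 48.0 to 53.6), neuronal (8.03 to 12.1 and 8.77 to 10.4), pharyngeal (6.36 to 6.90 and 5.38 to 7.23) and germline markers (60.9 to 68.0 and 60.6 to 66.0) overlapped between the genotypes. So did sperm (10.9 to 12.7 and 11.7 to 14.3), oocyte (35.5 to 43.7 and 26.1 to 38.2), adult yolk (105 to 186 and 151 to 222) and excretory and vulval markers (1.06 to 1.19 and 1.01 to 1.72). The 3 yolk genes were each lowest on mutant replicate 3, at log2 levels of 5.75 (vit-2), 5.47 (vit-5) and 2.72 (vit-6). The part of these tissues in the members' values was not tested.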

How the data were processed

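Values came from 8 one-color arrays, 4 per genotype, grouped by the sample labels. The authors deposited scanner output with spot intensities on a linear scale (per the file headers, from Agilent Feature Extraction, version 10.7.3.1), background-subtracted but not scaled between arrays. They also deposited a joint table of normalized intensities with the same rank order on each array, which served as an alternative. Control and outlier spots were left out, spots of a probe were averaged on the log2 scale, and the 75th percentile of each array was subtracted. Array quality and number, not counts, limit the precision.

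Probes were tested where well above background on all 4 arrays of a genotype. 34266 of 43603 probes (78.6%) were named through NCBI genes of WBcel235. The array design is older, so no coordinates are given. No sequences were used here. The tested probes of a gene were averaged, each centered first so that a left-out spot did not move the mean. Gene values were fitted by lmFit and eBayes of limma 3.58.1 (R 4.3.3, two-sided, genotype only) with Benjamini-Hochberg adjustment over all 18313. A call needed an adjusted p under 0.05 and the study's 1.5-fold change. The procedure was tested on simulated data. Summed marker levels are sums of linear values.

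The members and lists were chosen with earlier results of these data known. Members with values on every array were, per family, the 3 with the smallest p, those whose groups did not overlap, the 5 with the largest difference, the 3 with the largest spread, and members with a role known from mutants. Other members (13 with full alternatives) were chosen after their values were seen. Probes of related members may cross-hybridize, which was not tested. Alternatives were the deposited values, median and quantile scaling, normexp (offset 50, on median spot signal since the files hold no mean signal), dropping the filter or asking it of all 8 arrays, the median of probes, a slide block alone or with a position term, a replicate block, each array left out, and, added after seeing the data, each slide alone. Files were read and plots drawn in Python 3.11.15 (pandas 2.3.3, numpy 2.4.6, matplotlib 3.10.9).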

Additional observations from a re-analysis of the deposited data

Results flagged for a closer look

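In grl-5, the N2 replicate 4 array read -2.44, apart from the other N2 arrays at -3.88 to -3.70. The gap was 0.878 of the range of the group, above Dixon's critical value for 4 values. 66 groups of 4 arrays (33 genes in 2 genotypes) were looked at and this was the only one past the limit. Chance alone passes it in about 1 of 20 groups, or 3.3 here.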

How the results depend on the processing

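The median difference of the members moved by less than the spread between arrays in every setting. Calls over all genes, 17 in the fit used, were 11 with the deposited values, with quantile scaling and with the median of probes, 7 with median scaling, 2 without a filter, 0 with the slide and position term and 0 within either slide, 24 with the filter on all 8 arrays, and 2 to 5 with 1 array left out. The count of members called was 0 in each of these, and 1 (wrt-4) with the slide as a block. Of the 66 members, 7 had an unadjusted p under 0.05 in the fit used, where 12.2% of all genes did. The count was 15 with the slide as a block (12.2% of all genes), 11 within slide 1 (5.58%) and 15 within slide 2 (8.07%). With 1 array left out it was 2 to 14. It was 2 without mutant replicate 4 (8.36%) or N2 replicate 1 (9.22%) and 4 without N2 replicate 3 (12.2%). It was 11 without mutant replicate 2 (9.99%) and 14 without mutant replicate 1 (13.7%). A replicate block gave 0 calls over all genes, 0 members called and 15 members at an unadjusted p under 0.05 (12.6% of all genes). After each gene's mean within its genotype was subtracted, what was left of same-numbered samples correlated at -0.11, 0.24, 0.06 and 0.20. The numbers were thus not taken to pair the samples. Without that step, arrays of different genotypes correlated at 0.968 to 0.989.

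Among differences larger than their SE, in the 33 genes run under the alternatives, the sign turned with the slide and position term for grd-7 (0.98), ptc-2 (0.81) and wrt-8 (-0.32), and within slide 1 for qua-1 (-0.025). Of the other members with such a difference, grl-10 (-0.06), grl-3 (0.09), ptr-6 (-0.02) and ptr-11 (-0.05) also turned within slide 1, and 0 members did within slide 2. Differences smaller than their SE have no settled sign. With that term ptc-1 read 0.50, ptc-3 1.23 and wrt-10 0.18. The position term rests on few arrays and runs along with genotype, and the cause was not tested. grd-2, grd-11, ptr-25 and wrt-2 gave no value under the filter on all 8 arrays.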
